A study of Mus musculus with 34 samples.

Results

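The genes described here are 10 members of the p53 pathway, namely *Cdkn1a*, *Mdm2*, *Ccng1*, *Trp53inp1*, *Phlda3*, *Eda2r*, *Sesn2*, *Bax*, *Zmat3* and the gene of p53 itself, *Trp53*. They were picked by symbol from a table of 16389 mouse genes, with earlier results of these data known, and all 10 were found in it. The question put to them was whether a transcriptional response to DNA damage could still be seen in the mouse brain about 10 months after whole-body irradiation.

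Bulk RNA sequencing was performed on dissected cortex, hippocampus and thalamus (which includes striatum) of male C57BL/6 mice aged 1.5 or 4 months at irradiation (the sources differ), 4 animals per treatment and 34 libraries in all. Control mice (WT CON) were neither irradiated nor transplanted and received vehicle, and gave 3 cortex, 4 hippocampus and 4 thalamus libraries. GFP-BM CON mice received 1000 cGy to the whole body followed by bone marrow from CAG-EGFP donors, in which a ubiquitous promoter drives GFP, and gave 4 cortex, 4 hippocampus and 3 thalamus libraries. GFP-BM REPOP mice had the same irradiation and transplant and, 3.5 months later, a course of 14 days on PLX3397 (600 ppm), an inhibitor of CSF1R that depletes microglia, with 6 months of recovery, and gave 4 libraries in each region. Every irradiated mouse was also transplanted, and no unirradiated mouse received PLX3397, so the effects of irradiation and of transplant cannot be told apart in these groups. In whole tissue, fewer cells of a type and less RNA per cell cannot be told apart either.

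p53 is a transcription factor that is kept scarce by the ubiquitin ligase MDM2 and is stabilised when the kinases ATM and ATR sense broken DNA. Stabilised p53 binds pairs of short response elements and switches on genes that arrest the cell cycle, repair DNA, control metabolism or kill the cell, and it switches on *Mdm2* as its own brake. In the brain, ionising radiation is known for acute p53-dependent loss of dividing precursors and oligodendrocytes, while mature neurons mostly survive.

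Promoters from RefSeq (GRCm38.p6; 250 bases before to 50 after the start site) were given for 8 of the 10 genes, not for *Trp53inp1* or *Zmat3*. They were searched on both strands for the p53 consensus half-site of 10 bases, which reads the same on either strand. A half-site lay in the window of 5 of the 8, *Cdkn1a*, *Mdm2*, *Ccng1*, *Bax* and *Trp53*, against 2745 of all 32851 promoters of the same length (8.4%). A pair of half-sites at most 13 bases apart lay only in that of *Cdkn1a*, against 24 of all promoters (0.07%). The stretches of 60 bases that hold them are shown because p53 binds such half-sites in pairs. In all but *Cdkn1a* a single half-site is marked, not a pair. The stretches run 5′ to 3′ on the strand of the gene, with the half-sites in capitals.
Cdkn1a (chr17:29090903-29090962, plus strand): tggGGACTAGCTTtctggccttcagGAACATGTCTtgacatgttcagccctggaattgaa
Mdm2 (chr10:117710910-117710969, minus strand): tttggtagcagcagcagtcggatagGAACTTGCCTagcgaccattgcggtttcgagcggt
Ccng1 (chr11:40755437-40755496, minus strand): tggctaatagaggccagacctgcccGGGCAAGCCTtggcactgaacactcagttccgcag
Bax (chr7:45467065-45467124, minus strand): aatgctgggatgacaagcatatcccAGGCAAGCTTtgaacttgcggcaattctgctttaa
Trp53 (chr11:69580259-69580318, plus strand): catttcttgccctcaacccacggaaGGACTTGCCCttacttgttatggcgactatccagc
The half-sites began at -73 and -51 from the start site in *Cdkn1a*, at -186 in *Mdm2*, at -185 in *Ccng1*, at -201 in *Bax* and at -75 in *Trp53*. A match is a description of the letters only, and *Phlda3*, *Eda2r* and *Sesn2* had none in this window. *Cdkn1a* had a further window downstream, at 17:29093519-29093818, that held no half-site. The 5 of 8 is counted by gene, and the 8.4% by promoter window.

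Depth was even, at 17085018 to 26010509 recovered reads per library. Libraries differed more in base composition. The base-composition measure used below is the median log2 level of the 1388 genes of highest GC content (at least 58.2% in the longest transcript) minus that of the 1388 of lowest GC content (at most 41.5%). It ran from 0.75 to 1.24 in WT CON cortex, 1.75 to 3.39 in WT CON hippocampus and 1.09 to 3.65 in WT CON thalamus. The ranges were 0.43 to 0.58, 0.71 to 2.08 and 0.45 to 0.83 in GFP-BM CON, and 0.41 to 0.99, 1.46 to 2.6 and 0.51 to 0.94 in GFP-BM REPOP. Low-GC genes therefore read lower in the control libraries than in most irradiated ones of the same region. Marker levels in the hippocampus varied widely, also between whole groups. The summed striatum list had a median of 535.5 FPKM (63.5 to 711) in the controls and 125 (112 to 156) in GFP-BM CON. In GFP-BM REPOP it was 151.5 (104 to 1690). Medians in the same order were 99.05, 181.5 and 114.6 FPKM for the hippocampus list, and 636, 1230 and 1260 for oligodendrocytes. Those of astrocytes were closer, at 857.5, 872 and 926. In addition, 2 hippocampus libraries stood apart in their markers. WT CON replicate 2 had a hippocampus list of 53.1 FPKM against 90.1 to 109 in the other controls. Its summed immature neuron list was 253 FPKM against 37.3 to 52.5. The immature neuron list holds *Calb2*, which is also on the thalamus list and reached 227 FPKM. No other gene of it exceeded 20.8 FPKM in any library, so the high sum does not show more immature neurons. GFP-BM REPOP replicate 1 had a hippocampus list of 51.5 FPKM and a cortex list of 221 FPKM. Summed neuron markers ran from 739 to 1580 FPKM in WT CON hippocampus against 1450 to 1760 in GFP-BM CON, and from 987 to 1570 in WT CON thalamus against 1690 to 1730.

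Levels are given in FPKM (fragments per kilobase of gene, scaled to the size of the library), and differences as the log2 difference in FPKM + 0.1 with its standard error (SE) or 95% interval. A gene was called where limma gave an adjusted p under 0.05 (Benjamini-Hochberg over 14710 genes tested). Of the 10 genes 9 passed the filter of 1 FPKM in at least 3 libraries. *Eda2r* did not, and its values come from a fit with no filter over 16017 genes.

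None of the 9 genes was called between treatments within any single region. Averaged over the 3 regions, *Ccng1* and *Trp53inp1* rose and *Trp53* fell in GFP-BM CON, 3 of 9 genes where 29.9% of all tested genes were called. *Cdkn1a*, *Mdm2*, *Bax*, *Phlda3*, *Sesn2* and *Zmat3* were not called in that comparison. *Eda2r* rose there in the fit with no filter, where 28.2% of genes were called. No call between treatments on *Ccng1*, *Trp53inp1*, *Eda2r* or *Trp53* was kept when levels were corrected for GC content and transcript length. The first 3 are of low GC content, while that of *Trp53*, 53.3%, is above the median of 50.1% of tested genes. The base-composition measure also differed between treatments, and what caused these changes was not tested.

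**Figure D1:**
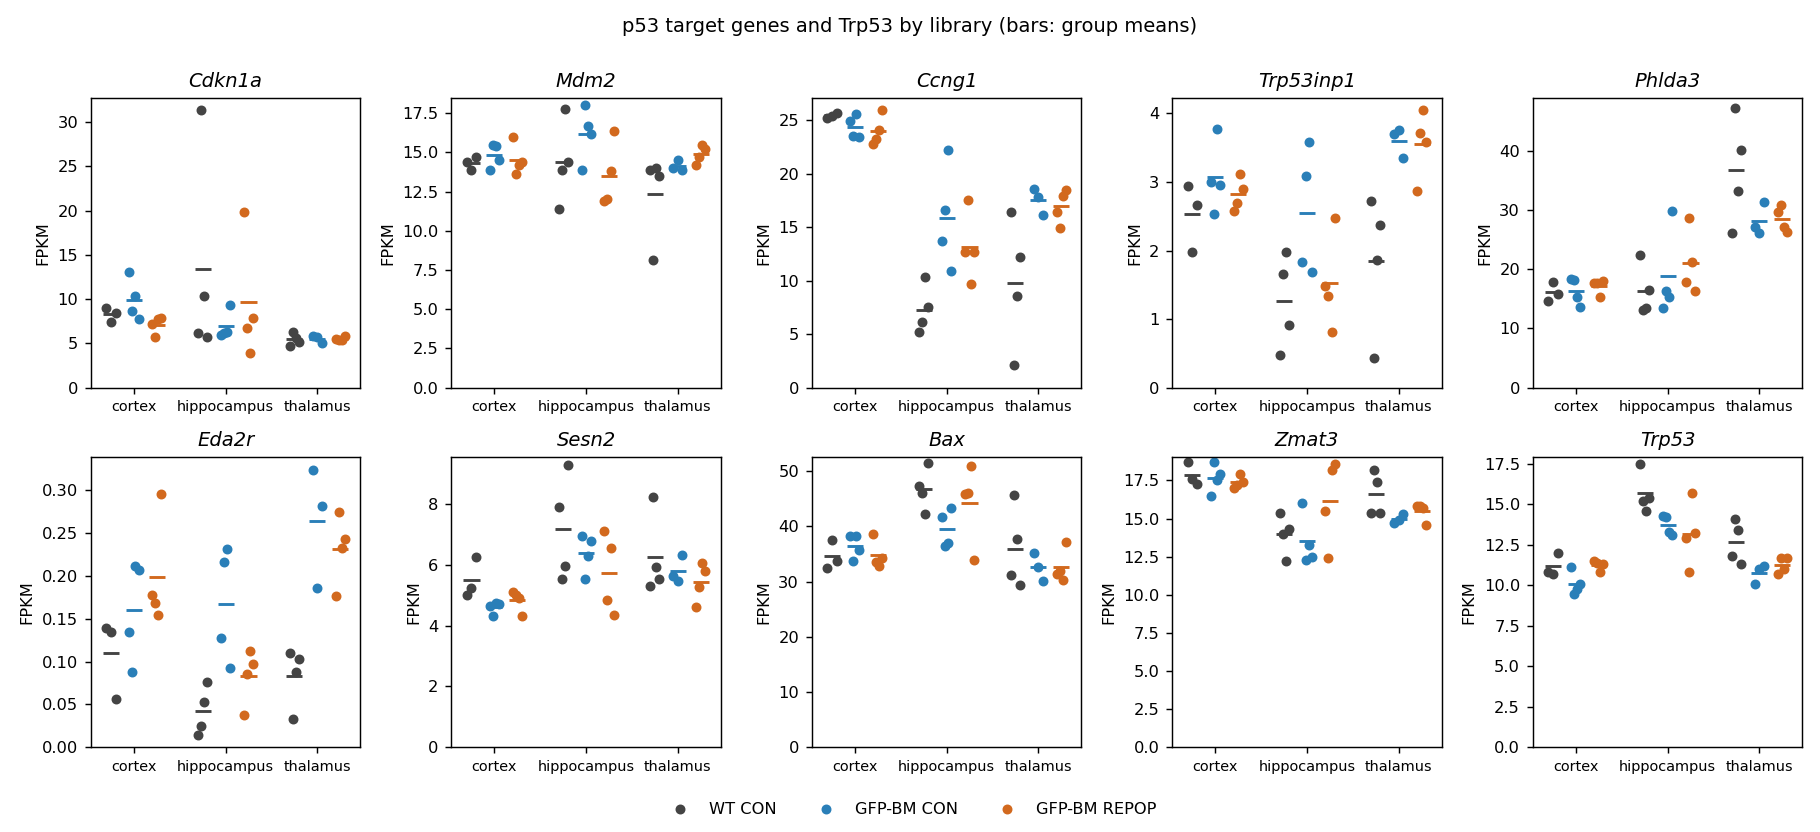
FPKM of the 10 genes in each of the 34 libraries (y axis, linear, a scale for each gene) by region and treatment (x axis). Points are libraries and bars are group means. *Ccng1* and *Trp53inp1* are low in the control hippocampus and thalamus libraries, and *Cdkn1a* is high in 2 hippocampus libraries, 1 of them a control.

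*Trp53* encodes p53 itself (11:69580359-69591873, plus strand; GC content 53.3%). Its level in the cortex was 10.8, 10.7 and 12 FPKM in WT CON, 11.1, 9.44, 9.75 and 10.1 in GFP-BM CON, and 11.5, 11.4, 10.8 and 11.3 in GFP-BM REPOP. In the hippocampus it was 17.5, 15.2, 14.6 and 15.4 FPKM in WT CON, 14.3, 14.2, 13.3 and 13.1 in GFP-BM CON, and 12.9, 10.8, 15.7 and 13.2 in GFP-BM REPOP. Levels in the thalamus were 11.8, 14.1, 13.4 and 11.3 FPKM in WT CON, 10.1, 11 and 11.2 in GFP-BM CON, and 10.7, 11.7, 11 and 11.7 in GFP-BM REPOP. The GFP-BM CON libraries lay below every control library in hippocampus and thalamus and overlapped the controls in cortex. Averaged over regions, *Trp53* fell by 0.19 on the log2 scale in GFP-BM CON (SE 0.05, adjusted p = 0.0086, limma), and by 0.16 in both irradiated groups together (adjusted p = 0.0073). The difference was -0.14 in GFP-BM REPOP (adjusted p = 0.056). After correction for GC content and length it was -0.04 in GFP-BM CON (adjusted p = 0.58) and -0.03 in both groups together (adjusted p = 0.65).

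*Mdm2* encodes the ligase that degrades p53 and is induced by it (10:117688875-117710758, minus strand; GC content 46.2%). Levels in the cortex were 14.4, 13.9 and 14.7 FPKM in WT CON, 13.9, 15.5, 15.4 and 14.5 in GFP-BM CON, and 16.0, 13.6, 14.2 and 14.4 in GFP-BM REPOP. In the hippocampus the values were 11.4, 13.9, 17.8 and 14.4 FPKM in WT CON, 13.9, 18, 16.7 and 16.2 in GFP-BM CON, and 11.9, 12, 13.8 and 16.4 in GFP-BM REPOP. In the thalamus they were 13.9, 8.12, 14.0 and 13.5 FPKM in WT CON, 14.0, 14.5 and 13.9 in GFP-BM CON, and 14.2, 14.7, 15.5 and 15.2 in GFP-BM REPOP. Treatments overlapped in cortex and hippocampus, and in the thalamus WT CON replicate 2 lay far below all other libraries. All 4 GFP-BM REPOP thalamus libraries lay above all 4 controls, with a difference of 0.30 (95% interval -0.05 to 0.65, adjusted p = 0.24, limma), and the difference in GFP-BM CON thalamus was 0.22 (adjusted p = 0.39). The difference averaged over regions was 0.15 in GFP-BM CON (95% interval -0.01 to 0.31, adjusted p = 0.14, limma) and 0.08 in GFP-BM REPOP (-0.08 to 0.24, adjusted p = 0.47). In the cortex the interval for GFP-BM CON was -0.09 to 0.18.

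*Cdkn1a* encodes p21, the inhibitor of cyclin-dependent kinases through which p53 halts the cell cycle (17:29090976-29100727, plus strand; GC content 54.4%). Among the 8 genes with a promoter window it alone held a pair of half-sites, in the more upstream of its windows. In the cortex it read 9.01, 7.44 and 8.45 FPKM in WT CON, 13.1, 8.68, 10.3 and 7.75 in GFP-BM CON, and 7.22, 5.70, 7.79 and 7.82 in GFP-BM REPOP. The 3 treatments overlapped, with differences from WT CON of 0.23 in GFP-BM CON (95% interval -0.12 to 0.59, adjusted p = 0.55, limma) and -0.22 in GFP-BM REPOP (-0.58 to 0.13, adjusted p = 0.58). In the thalamus it read 4.74, 6.28, 5.62 and 5.17 FPKM in WT CON, 5.79, 5.77 and 5.04 in GFP-BM CON, and 5.54, 5.38, 5.35 and 5.82 in GFP-BM REPOP. The groups overlapped closely there, and the difference was 0.03 in both irradiated groups, with intervals of -0.23 to 0.29 in GFP-BM CON and -0.21 to 0.27 in GFP-BM REPOP.

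The hippocampus held the widest spread of *Cdkn1a*, with 6.23, 31.4, 10.4 and 5.67 FPKM in WT CON, 5.95, 6.15, 6.34 and 9.36 in GFP-BM CON, and 19.9, 6.74, 3.97 and 7.91 in GFP-BM REPOP. The highest values, 31.4 and 19.9 FPKM, came from an unirradiated and an irradiated animal, the same 2 libraries whose region markers stood apart. The difference in GFP-BM CON was -0.60 (95% interval -1.77 to 0.57, adjusted p = 0.52, limma) and became -0.07 (-1.03 to 0.89) without WT CON replicate 2. In GFP-BM REPOP it was -0.36, turned to 0.17 without WT CON replicate 2 and was -0.79 without GFP-BM REPOP replicate 1. The part of the dissection in these values was not tested.

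*Ccng1* encodes cyclin G1, a p53-induced protein that acts back on MDM2 (11:40748552-40755311, minus strand; GC content 40.8%, the 7.6th percentile of tested genes). In the cortex it was nearly constant, at 25.2, 25.4 and 25.7 FPKM in WT CON, 24.9, 23.5, 25.6 and 23.4 in GFP-BM CON, and 22.8, 23.2, 24.1 and 25.9 in GFP-BM REPOP. In the hippocampus it read 5.19, 6.09, 10.3 and 7.55 FPKM in WT CON, 13.7, 16.6, 22.2 and 10.9 in GFP-BM CON, and 12.7, 17.5, 9.72 and 12.7 in GFP-BM REPOP. Levels in the thalamus were 16.4, 2.13, 8.55 and 12.2 FPKM in WT CON, 18.6, 17.8 and 16.1 in GFP-BM CON, and 16.4, 14.9, 17.9 and 18.5 in GFP-BM REPOP. Most control libraries lay below the irradiated ones in hippocampus and thalamus, and they did not overlap GFP-BM CON in the hippocampus, while the groups overlapped in cortex.

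The difference of *Ccng1* in GFP-BM CON was -0.07 in the cortex (95% interval -0.18 to 0.05), 1.11 in the hippocampus (0.55 to 1.67) and 1.15 in the thalamus (-0.02 to 2.31), with adjusted p of 0.60, 0.071 and 0.24 by limma. In GFP-BM REPOP it was -0.08, 0.86 and 1.10, with adjusted p of 0.48, 0.37 and 0.20. Without WT CON thalamus replicate 2, the thalamus differences were 0.54 in GFP-BM CON and 0.49 in GFP-BM REPOP. Averaged over regions *Ccng1* rose by 0.73 in GFP-BM CON (SE 0.20, adjusted p = 0.0081), by 0.63 in GFP-BM REPOP (adjusted p = 0.026) and by 0.68 in both (adjusted p = 0.0041), and without that library by 0.52, 0.42 and 0.47, all still called. The call in GFP-BM REPOP was lost without WT CON cortex replicate 1 (adjusted p = 0.05) or WT CON hippocampus replicate 1 (adjusted p = 0.051). The hippocampus effect exceeded the cortex effect by 1.17 and the thalamus effect exceeded it by 1.20, with adjusted p of 0.49 and 0.71, so a difference between regions was not shown.

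With GC content and length corrected, the averaged difference of *Ccng1* was 0.16 in GFP-BM CON (adjusted p = 0.30, limma), 0.19 in GFP-BM REPOP (adjusted p = 0.22) and 0.18 in both (adjusted p = 0.17). In the cortex alone the corrected level in both irradiated groups together was lower, at -0.28 (adjusted p = 0.049), the 1 call among the 9 genes where 1.75% of all genes were called.

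*Trp53inp1* encodes a nuclear and autophagy-linked stress protein that p53 induces and that favours cell death (4:11156431-11174379, plus strand; GC content 38.8%, the 3.0th percentile). Levels in the cortex were 2.94, 1.98 and 2.66 FPKM in WT CON, 3.00, 2.54, 3.78 and 2.95 in GFP-BM CON, and 2.58, 2.70, 3.12 and 2.90 in GFP-BM REPOP. In the hippocampus it read 0.479, 1.66, 1.98 and 0.917 FPKM in WT CON, 1.84, 3.09, 3.59 and 1.69 in GFP-BM CON, and 1.49, 1.34, 0.813 and 2.47 in GFP-BM REPOP. In the thalamus it read 2.72, 0.433, 1.86 and 2.37 FPKM in WT CON, 3.70, 3.76 and 3.35 in GFP-BM CON, and 2.87, 3.71, 4.05 and 3.58 in GFP-BM REPOP. All irradiated thalamus libraries lay above all controls of that region, whereas the groups overlapped in the other 2.

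Averaged over regions *Trp53inp1* rose by 0.83 in GFP-BM CON (SE 0.23, adjusted p = 0.0076, limma) and by 0.69 in both irradiated groups (adjusted p = 0.0087). The difference in GFP-BM REPOP was 0.55 (adjusted p = 0.079). By region it was 0.27, 1.06 and 1.17 in GFP-BM CON for cortex, hippocampus and thalamus, the last 2 with adjusted p of 0.17 and 0.22. It was 0.11 in cortex without WT CON cortex replicate 2, 0.71 in hippocampus without WT CON hippocampus replicate 1, and 0.63 in thalamus without WT CON thalamus replicate 2. Corrected for GC content and length, the averaged differences turned to -0.07 (adjusted p = 0.75) and -0.09 (adjusted p = 0.58).

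The same 2 libraries were lowest in both genes. WT CON thalamus replicate 2, with 2.13 FPKM of *Ccng1* and 0.433 of *Trp53inp1*, had the highest base-composition measure of all 34 libraries, 3.65. WT CON hippocampus replicate 1, with 5.19 and 0.479 FPKM, had the next highest, 3.39. *Bax*, a gene of high GC content, read 45.6 and 47.3 FPKM in these 2 libraries.

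**Figure D2:**
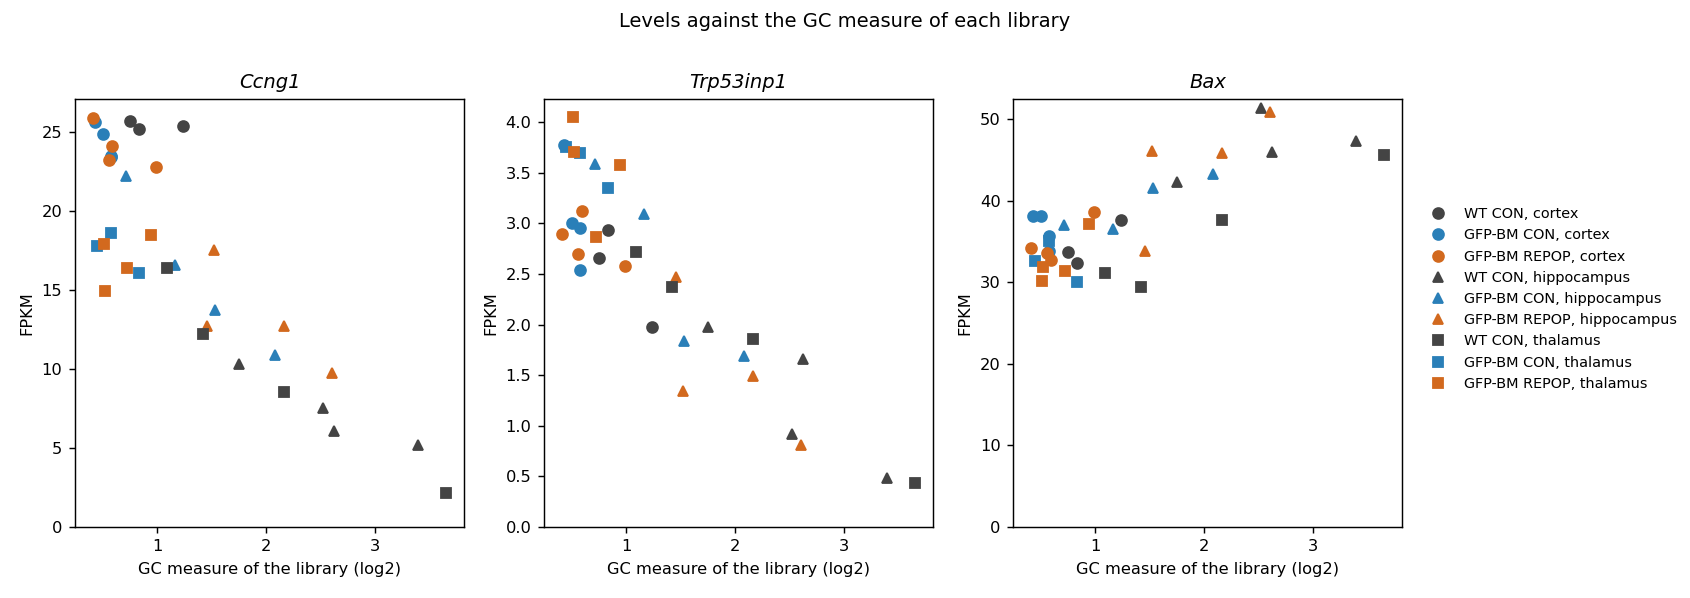
FPKM of *Ccng1*, *Trp53inp1* and *Bax* (y axes, linear) in each library against its base-composition measure (x axis, log2 units; a higher value means that high-GC genes read higher relative to low-GC genes). Shapes mark regions and colours treatments. *Ccng1* and *Trp53inp1* fall with the measure, and the control libraries of hippocampus and thalamus reach furthest to the right, to 3.65.

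*Eda2r* encodes the receptor of ectodysplasin A2, a p53 target of the tumour necrosis factor receptor family (X:97333840-97377216, minus strand; GC content 40.9%). It was close to the limit of detection, with 2 to 45 reads and 0.0144 to 0.323 FPKM per library and no library at 1 FPKM. In the cortex 18, 18 and 8 reads were recovered in WT CON, 19, 10, 24 and 25 in GFP-BM CON, and 20, 17, 18 and 33 in GFP-BM REPOP. In the hippocampus there were 2, 3, 7 and 9 reads in WT CON, 18, 30, 30 and 10 in GFP-BM CON, and 4, 9, 14 and 12 in GFP-BM REPOP. In the thalamus there were 12, 4, 13 and 13 reads in WT CON, 45, 21 and 39 in GFP-BM CON, and 23, 34, 32 and 31 in GFP-BM REPOP. Irradiated thalamus libraries lay above all controls of that region, as did the GFP-BM CON libraries in hippocampus, both in reads and in FPKM. In cortex the groups overlapped in reads, which are not scaled for library size. In FPKM the cortex libraries of GFP-BM REPOP, at 0.154 to 0.295, lay above the controls, at 0.0565 to 0.139. Those of GFP-BM CON, at 0.0873 to 0.212, overlapped both.

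With no filter on low values *Eda2r* rose over the 3 regions by 0.73 in GFP-BM CON (SE 0.14, adjusted p = 0.00033, limma), where 28.2% of 16017 genes were called. It rose by 0.58 in GFP-BM REPOP (SE 0.13, adjusted p = 0.0043; 17.1% called) and by 0.66 in both groups (SE 0.12, adjusted p = 0.00017; 31.3% called). These differences understate the change of so low a gene, since 0.1 is added to each FPKM. In the thalamus the rise in both groups was 0.93 (SE 0.20, adjusted p = 0.025; 5.69% called), a call that leaving out any of 6 single libraries ended, with adjusted p up to 0.087. Corrected for GC content and length, the 3 averaged differences were each 0.11, with adjusted p of 0.67, 0.66 and 0.60, and the thalamus difference was 0.06 (adjusted p = 0.89).

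*Bax* encodes the pore-forming protein of mitochondrial apoptosis (7:45461697-45466898, minus strand; GC content 63.5%). It was among the highest of the 10 genes, at 29.4 to 51.4 FPKM. In the cortex it read 32.4, 37.6 and 33.7 FPKM in WT CON, 38.2, 33.8, 38.2 and 35.7 in GFP-BM CON, and 38.6, 33.6, 32.8 and 34.2 in GFP-BM REPOP. In the hippocampus it read 47.3, 46.0, 42.3 and 51.4 FPKM in WT CON, 41.6, 36.5, 37.0 and 43.3 in GFP-BM CON, and 45.9, 46.1, 50.9 and 33.9 in GFP-BM REPOP. Levels in the thalamus were 31.2, 45.6, 37.7 and 29.4 FPKM in WT CON, 35.1, 32.6 and 30.1 in GFP-BM CON, and 31.4, 31.9, 30.2 and 37.2 in GFP-BM REPOP. The groups overlapped in every region, and the averaged difference was -0.10 in GFP-BM CON (95% interval -0.23 to 0.04, adjusted p = 0.28, limma) and -0.07 in GFP-BM REPOP (-0.20 to 0.07, adjusted p = 0.47).

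*Phlda3* encodes a p53-induced brake on the survival kinase AKT (1:135766119-135769136, plus strand; GC content 62.6%). In the cortex its 11 libraries lay between 13.7 and 18.3 FPKM with the groups overlapping. In the hippocampus it read 22.5, 13.1, 13.5 and 16.5 FPKM in WT CON, 13.5, 16.4, 15.4 and 29.9 in GFP-BM CON, and 17.9, 28.6, 21.3 and 16.3 in GFP-BM REPOP. In the thalamus it read 26.2, 47.3, 33.3 and 40.2 FPKM in WT CON, 27.2, 26.2 and 31.3 in GFP-BM CON, and 29.7, 30.8, 27.1 and 26.3 in GFP-BM REPOP. Controls tended to be the higher in thalamus, where the difference in both irradiated groups was -0.34 (95% interval -0.66 to -0.03, adjusted p = 0.13, limma). Averaged over regions it was -0.06 in GFP-BM CON (-0.30 to 0.18) and 0.04 in GFP-BM REPOP (-0.20 to 0.27), with adjusted p of 0.73 and 0.84.

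*Sesn2* encodes sestrin 2, which restrains oxidative stress and mTORC1 signalling (4:132492032-132510501, minus strand; GC content 58.7%). Levels in the cortex were 5.01, 5.23 and 6.27 FPKM in WT CON, 4.66, 4.32, 4.76 and 4.70 in GFP-BM CON, and 5.12, 5.01, 4.91 and 4.31 in GFP-BM REPOP. Every GFP-BM CON cortex library thus lay below every control, with a difference of -0.25 (95% interval -0.45 to -0.04) that was not called (adjusted p = 0.23, limma). In hippocampus and thalamus the groups overlapped within 4.36 to 9.29 FPKM. The averaged difference was -0.16 in GFP-BM CON (adjusted p = 0.19), -0.23 in GFP-BM REPOP (adjusted p = 0.07) and -0.19 in both (adjusted p = 0.059).

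*Zmat3* encodes a zinc finger protein that binds RNA and is a direct p53 target (3:32334792-32366014, minus strand; GC content 47.6%). In the cortex its libraries lay between 16.5 and 18.7 FPKM, in the hippocampus between 12.2 and 18.6 and in the thalamus between 14.6 and 18.2, and the groups overlapped in cortex and hippocampus. Levels in the thalamus were 15.4, 18.2, 17.4 and 15.4 FPKM in WT CON, 14.7, 14.9 and 15.3 in GFP-BM CON, and 15.8, 15.8, 15.7 and 14.6 in GFP-BM REPOP. Every GFP-BM CON thalamus library lay below every control, with a difference of -0.14 (adjusted p = 0.31, limma), while GFP-BM REPOP overlapped the controls. The averaged difference was -0.07 in GFP-BM CON (95% interval -0.19 to 0.05, adjusted p = 0.35, limma) and 0.02 in GFP-BM REPOP (-0.09 to 0.13, adjusted p = 0.82). With GC content and length corrected *Zmat3* was the 1 of the 9 genes called in GFP-BM CON, at -0.35 (adjusted p = 0.010; 25.4% of all genes called). It was at -0.26 in both groups together (adjusted p = 0.022; 27.5% called), and none of the 9 was called in GFP-BM REPOP (17.3% called).

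**Figure D3:**
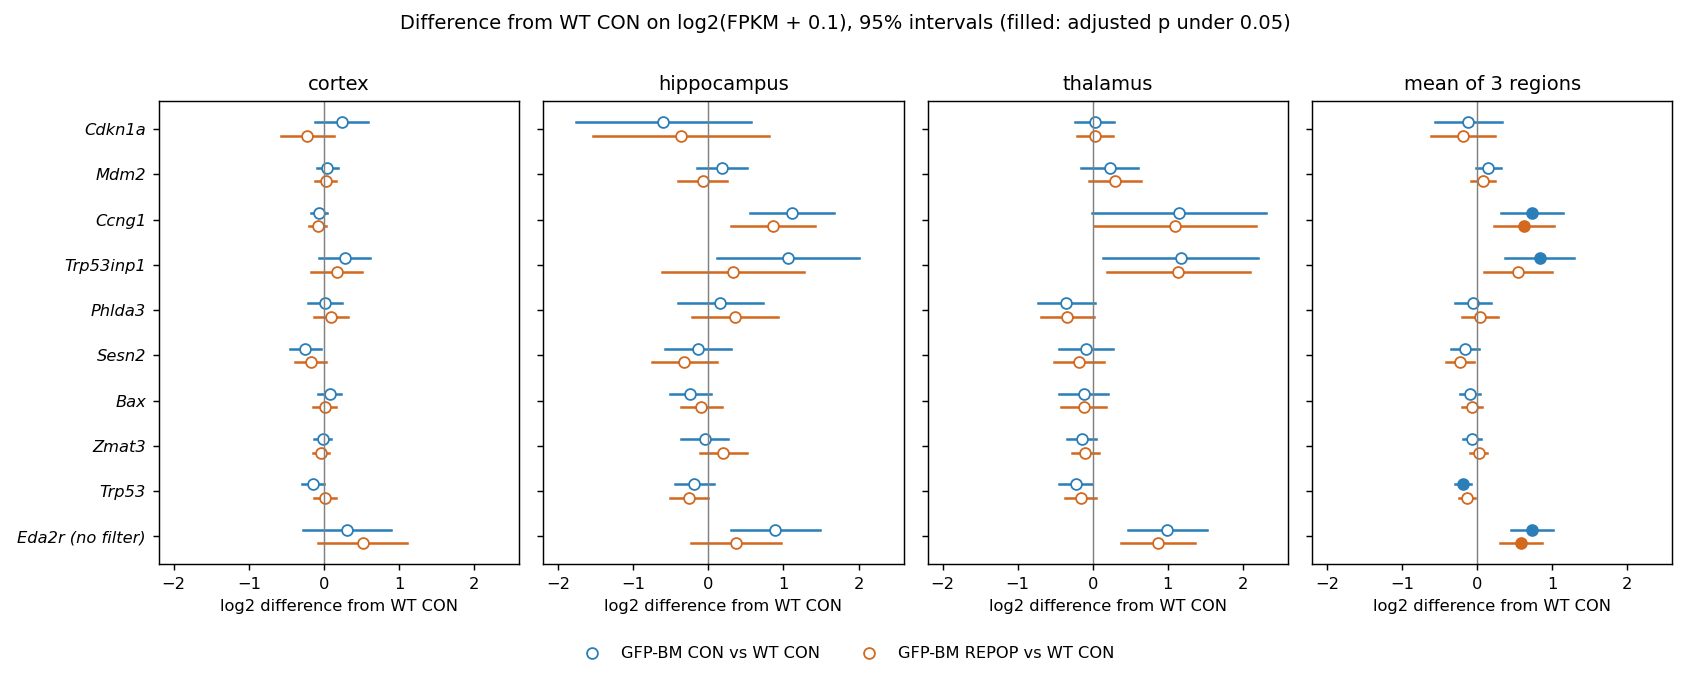
Log2 difference from WT CON (x axis, FPKM + 0.1) of each gene (y axis) in cortex, hippocampus, thalamus and their mean, for GFP-BM CON (blue) and GFP-BM REPOP (orange). Points are estimates, lines 95% intervals, and filled points have an adjusted p under 0.05. No point is filled in cortex, hippocampus or thalamus for a single irradiated group. In the mean of the regions *Ccng1*, *Trp53inp1*, *Trp53* and *Eda2r* are filled for GFP-BM CON, and only *Ccng1* and *Eda2r* for GFP-BM REPOP.

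Read against all tested genes, the counts of called members were as follows. Averaged over regions, 3 of 9 genes were called in GFP-BM CON (29.9% of all genes), 1 of 9 in GFP-BM REPOP (18.1%), 3 of 9 in both irradiated groups together (32.7%) and 0 of 9 between the irradiated groups (0.381%). Within the cortex none of the 9 was called, where 0.320% of all genes were called in GFP-BM CON, 0.734% in GFP-BM REPOP, 0.809% in both and 0.0476% between the irradiated groups. None was called in the hippocampus, at 0%, 0.0136%, 0% and 0.0272% in the same order, or in the thalamus, at 0%, 0.836%, 5.53% and 0%. The tests of whether the GFP-BM CON effect differed between cortex and hippocampus or between cortex and thalamus called 0% of genes each. In the comparisons with no call at all, limma gave an unadjusted p under 0.05 to 3517 genes (2 of the 9) in GFP-BM CON hippocampus, 3045 (2) in GFP-BM CON thalamus and 2929 (2) in both groups in hippocampus. It did so for 139 genes (0) between the irradiated groups in thalamus, and for 1484 (1) and 507 (1) in the tests of cortex against hippocampus and thalamus. The 2 comparisons with WT CON share the control libraries and are not independent of each other. The median difference of the 9 genes averaged over regions was -0.07 in GFP-BM CON and 0.02 in GFP-BM REPOP, beside -0.03 and -0.02 over all tested genes.

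Microglial depletion and repopulation left no called difference in these genes between the irradiated groups. Averaged over regions, the differences between these irradiated groups ran from -0.28 for *Trp53inp1* (95% interval -0.74 to 0.17) to 0.10 for *Phlda3* (-0.14 to 0.33). In cortex *Cdkn1a* in GFP-BM REPOP differed from GFP-BM CON by -0.46 (-0.79 to -0.13), at an adjusted p of 0.86 by limma. Markers of engrafted macrophages differed between these groups, with sums of 12.8 to 21.8 FPKM in GFP-BM CON cortex and 61.9 to 101 in GFP-BM REPOP cortex, against 8.33 to 10.3 in WT CON. The summed microglia markers ran from 101 to 117 FPKM in WT CON cortex, 82.5 to 87.8 in GFP-BM CON and 73.2 to 79.8 in GFP-BM REPOP. Their part in the levels of the p53 genes was not tested.

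In the controls, several of the genes differed between regions. Mean levels in WT CON cortex were highest for *Bax*, *Ccng1*, *Zmat3* and *Phlda3* and lowest for *Trp53inp1* and *Eda2r*. *Phlda3* was higher in thalamus than in cortex by 1.16 (adjusted p = 0.00046, limma) and than in hippocampus by 1.16 (adjusted p = 0.00034). *Trp53* was higher in hippocampus than in cortex by 0.48 (adjusted p = 0.00058) and lower in thalamus than in hippocampus (-0.30, adjusted p = 0.018). *Bax* was higher in hippocampus than in cortex by 0.43 (adjusted p = 0.0095) and lower in thalamus than in hippocampus (-0.39, adjusted p = 0.019). *Zmat3* was lower in hippocampus than in cortex (-0.36, adjusted p = 0.011). *Ccng1* was lower than in cortex in hippocampus (-1.83, adjusted p = 0.00073) and in thalamus (-1.68, adjusted p = 0.0022), and *Trp53inp1* in hippocampus (-1.10, adjusted p = 0.042). These made 5 of 9 genes between hippocampus and cortex, where 36.9% of all genes were called, 2 of 9 between thalamus and cortex (30.0%) and 3 of 9 between thalamus and hippocampus (17.7%). Corrected for GC content and length, *Phlda3* still differed by 0.89 and 1.22 and *Ccng1* by -0.95 and -1.06, whereas *Trp53inp1* and *Zmat3* turned to 0.25 and 0.15 between hippocampus and cortex.

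Lists of further genes of the pathway placed the members in context. Of 41 other p53 targets 37 were tested, and averaged over regions 8 were called in GFP-BM CON, of which 5 rose and 3 fell, where 29.9% of all genes were called, with a median of 0.02 beside -0.03 over all genes. *Rrm2b*, a subunit of ribonucleotide reductase that p53 induces, rose by 1.11 (SE 0.25, adjusted p = 0.0019, limma). *Polk*, a translesion DNA polymerase, rose by 0.95 (SE 0.20, adjusted p = 0.0012). *Ikbip* rose by 0.50 (adjusted p = 0.0083) and *Ercc5*, an endonuclease of nucleotide excision repair, by 0.44 (adjusted p = 0.042). *Plk3* fell by 0.31 (adjusted p = 0.0087). After correction for GC content and length 5 of 36 were called (25.4% of all genes), 4 higher and 1 lower. These were *Rrm2b* at 0.35 (adjusted p = 0.049), *Polk* at 0.43 (adjusted p = 0.0047), *Btg2*, and, named after their values were seen, *Gadd45a*, a stress sensor, at 0.37 (adjusted p = 0.0057) and *Ephx1*, an epoxide hydrolase, at 0.27 (adjusted p = 0.021). *Ikbip* at 0.04 (adjusted p = 0.75), *Ercc5* at 0.36 (adjusted p = 0.051) and *Plk3* at -0.13 (adjusted p = 0.20) were not called. In GFP-BM REPOP 4 of 37 were called (18.1% of all genes), *Rrm2b* at 0.84, *Polk* at 0.61 and *Fbxw7*, a ubiquitin ligase subunit, at 0.46 being higher and *Plk3* at -0.25 lower. Of these *Fbxw7* alone was called after correction, at 0.36 (adjusted p = 0.046), with *Rrm2b* at 0.27, *Polk* at 0.21 and *Plk3* at -0.11. In both irradiated groups together 9 of 37 were called (32.7% of all genes), 5 higher and 4 lower. After correction 8 of 36 were called there (27.5% of all genes), 7 higher and 1 lower. The corrected median was 0.01, beside -0.01 over all genes.

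*Btg2*, an antiproliferative p53 target that neurons also induce as an immediate-early gene, fell by 0.84 in GFP-BM CON (SE 0.18, adjusted p = 0.0013, limma). Its GC content, 49.7%, is near the median of 50.1% of tested genes, and the corrected difference was -0.75 (adjusted p = 0.0037). In the cortex it read 9.50, 12.2 and 11.3 FPKM in WT CON, 4.58, 5.37, 7.59 and 5.58 in GFP-BM CON, and 3.28, 8.42, 11.2 and 15.7 in GFP-BM REPOP. In the hippocampus it read 9.46, 13.5, 11.4 and 10.3 FPKM in WT CON, 4.64, 5.78, 7.19 and 4.62 in GFP-BM CON, and 5.09, 6.90, 8.25 and 9.46 in GFP-BM REPOP. In the thalamus it read 5.91, 6.60, 4.90 and 4.73 FPKM in WT CON, 3.78, 4.01 and 3.25 in GFP-BM CON, and 2.86, 5.14, 5.73 and 6.86 in GFP-BM REPOP. GFP-BM CON thus lay below the controls without overlap in all 3 regions. GFP-BM REPOP overlapped them in cortex and thalamus, and in hippocampus its highest library matched the lowest control.

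Of 18 regulators of p53 16 were tested, and 7 were called in GFP-BM CON averaged over regions (29.9% of all genes), 6 higher and 1 lower, with a median of 0.28. The higher ones included the damage kinases *Atr* at 1.51 (SE 0.24, adjusted p = 4.9e-05, limma), *Prkdc* at 1.12 (adjusted p = 0.0004) and *Atm* at 1.06 (adjusted p = 0.00059), the p53 inhibitor *Mdm4* at 0.72 (adjusted p = 0.012) and the acetyltransferase *Ep300* at 0.53 (adjusted p = 0.034). All 5 encode long transcripts, and corrected for GC content and length the differences were 0.67, 0.40, 0.33, 0.15 and 0.32, of which those of the 3 kinases were called. In all, 5 of 16 were called after correction, 3 higher and 2 lower, with a median of 0.09. The lower ones, named after their values were seen, were the ubiquitin ligase *Cop1* at -0.92 (adjusted p = 0.00019), against 0.30 as deposited, and the damage adaptor *Trp53bp1* at -0.35 (adjusted p = 0.00046), against -0.04. In the hippocampus *Atr* read 0.0722 to 0.233 FPKM in WT CON, 0.419 to 1.75 in GFP-BM CON and 0.132 to 0.545 in GFP-BM REPOP, with no overlap between the controls and GFP-BM CON. Within single regions *Mdm4* was called in the cortex of both irradiated groups, at 0.23 (adjusted p = 0.047; 0.06 corrected), and *Atr* in their thalamus, at 1.80 (adjusted p = 0.023; 0.66 corrected). In GFP-BM REPOP 4 of 16 were called (18.1% of all genes), *Atr*, *Prkdc*, *Atm* and *Cop1*, all higher. With the correction 2 were called higher, *Atr* at 0.47 and *Prkdc* at 0.28, and 2 lower, *Cop1*, which turned from 0.25 to -0.63, and *Trp53bp1* at -0.29, while *Atm* was at 0.20 (adjusted p = 0.082). In both groups together 7 of 16 were called (32.7% of all genes), 6 of them higher, and after correction 5, of which 3 were higher.

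Of 24 genes of DNA double-strand break repair 18 were tested, and 7 were called in GFP-BM CON averaged over regions (29.9% of all genes), 6 higher and 1 lower, with a median of 0.07. *Rad50*, which tethers broken ends in the MRN complex, rose by 1.72 (SE 0.23, adjusted p = 2.1e-05, limma), and still by 1.44 after correction (adjusted p = 3.2e-05). *Lig4*, the ligase of end joining, rose by 1.38 (0.84 corrected) and *Nbn*, a partner of *Rad50*, by 0.66 (0.43 corrected). *Dclre1c*, the Artemis nuclease, and *Rbbp8*, a resection factor, rose by 1.05 and 0.76, and were at 0.13 and 0.18 after correction. Corrected, 6 of 18 were called, the first 3 of these higher and *Mdc1*, *Rnf8* and *Xrcc5*, named after their values were seen, lower, at -0.19, -0.15 and -0.19. *Rad50* read 0.316 to 0.475 FPKM in WT CON hippocampus, 1.00 to 3.81 in GFP-BM CON and 0.505 to 1.33 in GFP-BM REPOP, and 0.298 to 1.29 in WT CON thalamus, 2.29 to 3.70 in GFP-BM CON and 2.01 to 3.37 in GFP-BM REPOP. In both regions every irradiated library lay above every control, and in cortex the groups overlapped. It was called in the thalamus of GFP-BM REPOP at 2.09 (adjusted p = 0.047) and of both groups at 2.18 (adjusted p = 0.017), where *Dclre1c* was called too at 1.38 (adjusted p = 0.045), and was at 0.15 after correction (adjusted p = 0.41). In GFP-BM REPOP 5 of 18 were called (18.1% of all genes), *Rad50*, *Lig4*, *Rbbp8*, *Dclre1c* and *Nbn*, all higher, and all but *Dclre1c* were called after correction. In both groups together 7 of 18 were called (32.7% of all genes), 6 of them higher, and after correction 7, of which 4 were higher.

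**Figure D4:**
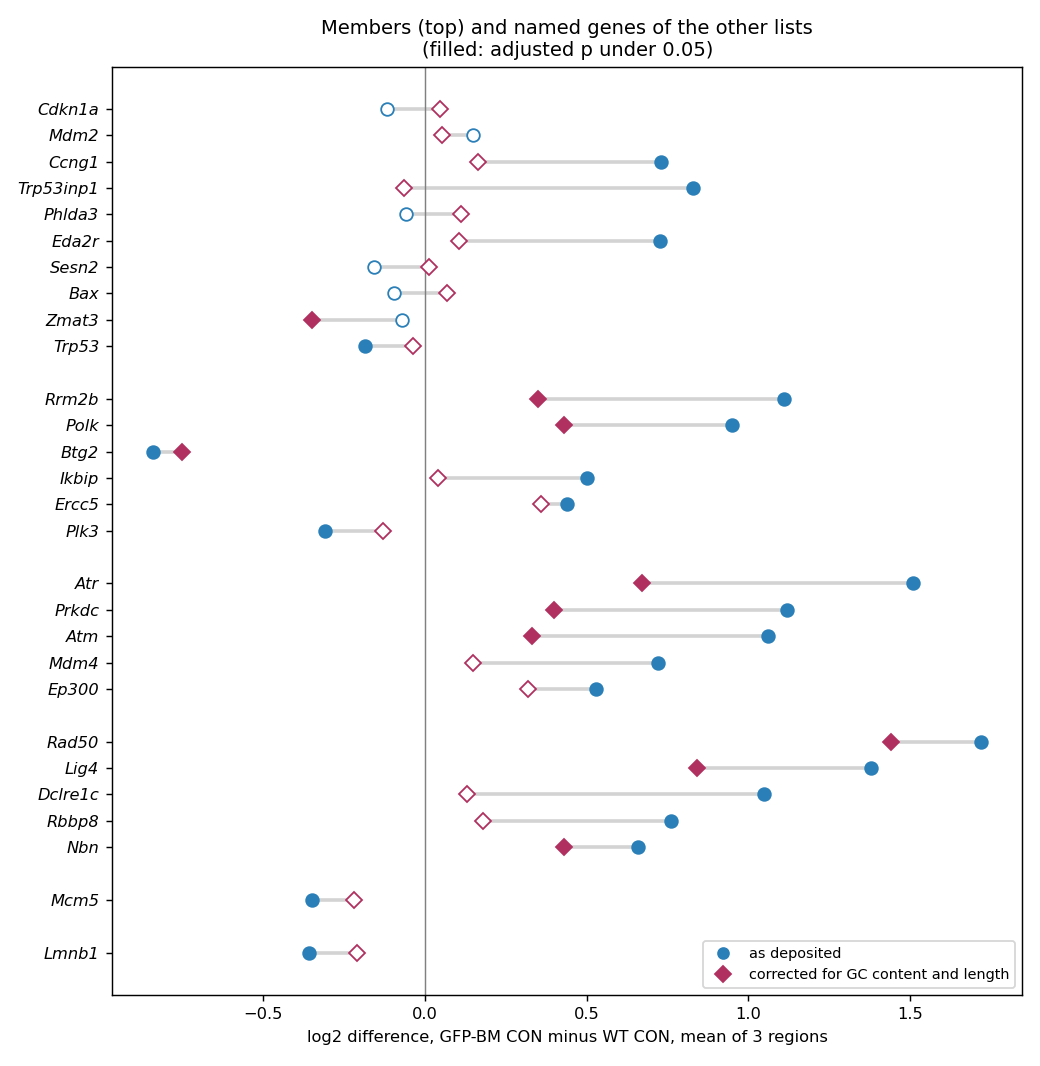
Log2 difference between GFP-BM CON and WT CON averaged over 3 regions (x axis) for the p53 genes and the named list genes (y axis). Circles are values as deposited, and diamonds are values after correction for GC content and transcript length. A line joins the symbols of a gene, and filled symbols have an adjusted p under 0.05. The symbols of *Rad50* and *Btg2* stay near each other, at 1.44 and -0.75 after correction, and *Ccng1* and *Trp53inp1* move toward 0.

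Few genes of cell division could be tested, since 18 were listed, 12 were in the table and 3 passed the filter. Of these *Mcm5*, a subunit of the replicative helicase, was called in GFP-BM CON at -0.35 (adjusted p = 0.0046, limma) and in both groups at -0.22 (adjusted p = 0.028), at -0.22 and -0.10 after correction, neither of them called. Of 16 senescence genes 9 were tested, and *Lmnb1*, the lamin lost from senescent cells, was called in GFP-BM CON at -0.36 (adjusted p = 0.0029) and in both groups at -0.29 (adjusted p = 0.0040). Its corrected differences were -0.21 and -0.16, also not called. *Mcm5* was thus 1 of 3 and *Lmnb1* 1 of 9 genes called. Of all genes 29.9% were called in GFP-BM CON and 32.7% in both groups. The correction instead called 2 of the 9 senescence genes, named after their values were seen, both lower. This was so in GFP-BM CON, where 25.4% of all genes were called, and in GFP-BM REPOP, at 17.3%. Of the 3519 genes called in GFP-BM CON after correction, 2170 were lower. *Cdkn1b*, the inhibitor p27, was at -0.35 in GFP-BM CON (adjusted p = 0.00058) and -0.36 in GFP-BM REPOP (adjusted p = 0.0014), and *Hmgb1*, a chromatin protein, at -0.58 (adjusted p = 9.7e-05) and -0.45 (adjusted p = 0.0024). As deposited they were at 0.06 and -0.04 and at 0.04 and 0.03. Without the correction, no gene of either list was called in GFP-BM REPOP averaged over regions (18.1% of all genes). None of any of the 5 lists was called between the irradiated groups averaged over regions (0.381%).

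With the mean of each region subtracted, *Ccng1* and *Trp53inp1* varied together over the 34 libraries (Pearson r = 0.86), as did *Mdm2* and *Trp53inp1* (r = 0.83), and *Eda2r* with *Ccng1* and with *Trp53inp1* (r = 0.70 each). *Bax* varied against *Trp53inp1* (r = -0.74) and *Trp53* against *Ccng1* (r = -0.69). These libraries also share the differences in base composition given above. *Cdkn1a* was weakly related to *Mdm2* (r = -0.10) and *Ccng1* (r = -0.18). Among the patterns most like *Ccng1* were those of *Tank* and *Cnep1r1* (r = 0.97 and 0.96), and those most like *Trp53inp1* were *Ralgps2*, *Iws1* and *Cnot6* (r = 0.97 each), all 5 of a GC content below the median. Closest to *Mdm2* were *Cpd*, *Atl3* and *Ston2* (r = 0.95, 0.93 and 0.91), to *Cdkn1a* *Sall3*, *Ppm1j* and *Doc2g* (0.90, 0.88 and 0.88), and to *Phlda3* *Mid1ip1*, *Rabac1* and *Dpcd* (0.89, 0.86 and 0.86). Closest to *Bax* were *Phb2*, *Asb6* and *Pex19* (0.87, 0.86 and 0.85), to *Zmat3* *Smurf1*, *Jade2* and *Rnf145* (0.82, 0.81 and 0.80), and to *Trp53* *Clcn7*, *Cluh* and *Eif4ebp2* (0.82, 0.81 and 0.81). Closest to *Eda2r* were *Trpc5*, *Igf2bp3* and *Hps3* (0.83, 0.83 and 0.82), and among those close to *Sesn2* were *4930404N11Rik* and *1700017B05Rik* (0.81 each).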

How the data were processed

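Brain tissue was sequenced as paired-end reads on NovaSeq and HiSeq instruments; which instrument read which library is not given in the sources used here. The deposited FPKM table was made by the authors, who aligned reads with STAR to mm10 (build and tools per the submitters' processing notes), counted them per gene with featureCounts and scaled them for gene length and library size with edgeR and limma. Whole reads were recovered from the steps between low FPKM values and used for depth, for the read counts given for *Eda2r* and for a count-based alternative.

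Protein coding and long non-coding genes, and 366 of unknown biotype, were kept where they had at least 1 FPKM in at least 3 libraries. These were 14710 of 16389 genes, with biotype from RefSeq. Values were tested as log2(FPKM + 0.1) with limma 3.58.1 (limma-trend, two-sided, R 4.3.3), 3 groups per region, or 9 groups with a random effect of animal (correlation -0.0384) for averages over regions, control regions and differences between effects, 21 comparisons in all. p-values were adjusted by Benjamini-Hochberg within each comparison. Nothing states how animals were assigned to batches. Within a region each animal gave a single library, so those p-values measure the spread between these animals. The fit of 9 groups used 34 libraries from 12 animals. At a correlation of -0.0384 it treated the regions of an animal nearly as separate animals. Its p-values thus measure mainly the spread between libraries, pooled over regions. That spread was unequal: for the median gene the residuals had an SD of 0.118 in cortex, 0.29 in hippocampus and 0.225 in thalamus. The fits were tested on simulated data first. The correction removes, within each library, smooth curves of the longest transcript's length and GC content, known for 13875 genes (94.3%). Gene positions are those of GENCODE on GRCm38.

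The 10 genes were named in every comparison. From 5 further lists, up to 5 called genes per list and comparison were named by size, with the 2 largest changes each way among the other p53 targets. Likeness is the Pearson r over 34 libraries after region means were subtracted; the 3 most alike genes were named for each member, less 2 that are not reported here. The members and lists were chosen with earlier results of these data known. *Gdf15*, *Cdkn2a* and other listed genes without a row were not analysed here.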

Additional observations from a re-analysis of the deposited data

Results flagged for a closer look

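Of 70 groups of 4 libraries examined over the 10 genes, 4 held a value whose gap to the others, as a share of the group's range, was above 0.829, and chance flags about 1 group in 20. *Cdkn1a* in GFP-BM CON hippocampus replicate 4 was 9.36 FPKM, against 5.95 to 6.34 in the others of its group. *Mdm2* in WT CON thalamus replicate 2, the library with the highest base-composition measure, was 8.12 FPKM against 13.5 to 14.0. *Phlda3* in GFP-BM REPOP cortex replicate 3 was 15.3 FPKM against 17.7 to 18. *Zmat3* in GFP-BM REPOP thalamus replicate 4 was 14.6 FPKM against 15.7 to 15.8.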

How the results depend on the processing

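The cause of these changes was not tested. Counts of called members below show how calls moved with the setting. Apart from the shares given above, the share of all genes called was not set beside them. A count may therefore move with the calls over all genes, and is not a result about the members. Corrected for GC content and length, *Trp53inp1* turned to -0.07 in GFP-BM CON (-0.05 also without the filter), to -0.09 in both irradiated groups (-0.08) and to 0.25 between hippocampus and cortex (0.20), *Zmat3* to 0.15 between hippocampus and cortex (0.13), and *Bax* to -0.24 between thalamus and cortex (-0.25). The same correction moved the count of called members in the mean of the regions from 3 to 1 in GFP-BM CON, 1 to 0 in GFP-BM REPOP and 3 to 1 in both groups, from 0 to 1 in both groups in cortex and from 5 to 2 between hippocampus and cortex (1 without the filter), from 2 to 3 between thalamus and cortex and from 3 to 4 between thalamus and hippocampus. With no filter, *Eda2r* was added: 2 genes in GFP-BM REPOP over regions and 1 in both groups in thalamus, the same counts with a pseudocount of 1 or 0.01, where 0.01 also called *Eda2r* between hippocampus and cortex (-1.29, adjusted p = 0.037). The voom fit on recovered reads gained 6 calls over all comparisons, and called 3 in GFP-BM REPOP. Without the filter it called 4 there, 5 in both groups and 1 in both groups in thalamus. Quantile scaling called 3 in GFP-BM REPOP, adding *Trp53* and *Sesn2* (-0.31), called *Sesn2* also in GFP-BM CON (-0.28) and in both groups (-0.29), and in 4 results between control regions gained 3 calls and lost 1. Median-ratio scaling gained 2 calls over all comparisons, and called 2 in GFP-BM REPOP. Replicate numbers did not pair the samples, as the correlation of deviations over 32 same-numbered pairs ran from -0.43 to 0.49 with 5 above 0.1. The replicate block left 0 in GFP-BM REPOP, *Ccng1* being at adjusted p = 0.056 by limma, and changed no other call. Array weights gained 6 calls over all comparisons. Among them were 2 in GFP-BM CON hippocampus, 1 between the irradiated groups over regions and 2 in the difference between hippocampus and cortex. A fit of all 9 groups called 1 each in GFP-BM CON hippocampus, both groups in hippocampus and GFP-BM CON thalamus, and 2 each in GFP-BM REPOP and both groups in thalamus. Leaving out 1 library at a time gave 0 to 1 calls in GFP-BM CON hippocampus, 0 to 4 in GFP-BM REPOP over regions, 0 to 1 in GFP-BM REPOP thalamus, 3 to 4 in both groups over regions, 0 to 3 in both groups in thalamus, 3 to 6 between hippocampus and cortex and 1 to 5 between thalamus and hippocampus. *Ccng1* was called in GFP-BM CON hippocampus without WT CON replicate 3 (adjusted p = 0.042) or GFP-BM CON replicate 4 (0.035). Without WT CON thalamus replicate 1, both groups in thalamus gained *Ccng1* at 1.48, *Trp53inp1* at 1.42 and *Phlda3* at -0.49, the last also in GFP-BM REPOP. Without WT CON thalamus replicate 2, *Trp53inp1* was called there at 0.61 and *Ccng1* was at 0.51, not called. Without WT CON replicate 1 of both hippocampus and thalamus, *Mdm2* and *Zmat3* gained and *Bax* and *Trp53* lost a call between thalamus and hippocampus, and *Trp53inp1* lost its call between hippocampus and cortex. Fits without the filter that combined it with voom, the correction or another pseudocount were chosen after seeing the data.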
